A study of Mus musculus with 8 samples.

Results

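The small nucleolar RNA host transcripts examined here are Gas5, Snhg1, Snhg3, Snhg5, Snhg6, Snhg8 and Snhg12, 7 RNAs that were taken by gene symbol from the 23143 rows of the count table by a fixed list of names. All 7 had a row, and all 7 were among the 10494 rows whose normalized counts averaged 100 or more, the minimum used for every comparison. RNA was sequenced from RAW264.7 cells, a mouse macrophage line, as 1 unstimulated culture (0 min) and 7 cultures that received LPS, the endotoxin of Gram-negative bacteria, at 100 ng/ml for 15, 30, 45, 60, 75, 90 or 120 min. All 8 groups are the same line with no other treatment or genetic change named in the labels, and each is represented by 1 library. There is therefore no replicate check of any difference, and the 95% intervals given cover counting error only.

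Small nucleolar RNAs (snoRNAs) guide the chemical modification of ribosomal RNA: the box C/D class directs 2′-O-methylation and the box H/ACA class directs pseudouridylation. In vertebrates most of them lie in introns of a host gene and are trimmed out of the excised intron, so that 1 transcription event yields both a spliced host RNA and its snoRNAs. Some hosts encode ribosomal proteins or nucleolar proteins. Others, like the 7 described here, are classed as non-coding. Several of the latter, Gas5 being the classical example, start with an oligopyrimidine tract as the mRNAs of ribosomal proteins do, and their short open reading frames make the spliced RNAs targets of nonsense-mediated decay during translation.

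The 7 genes lie at separate places in the genome except for a pair on chromosome 4 (build GRCm38.p6, RefSeq gene table). Gas5, whose RNA was first isolated from growth-arrested cells, spans chr1:161034601-161038539 on the plus strand, and 9 annotated snoRNAs lie inside it. Snhg1 spans chr19:8723487-8726326 on the plus strand and holds 8 snoRNAs. Snhg12 (chr4:132308678-132311024, plus strand) holds 4, and Snhg3 (chr4:132351933-132353686, minus strand) holds 2, the nearly identical H/ACA RNAs Snora73a and Snora73b. Snhg5 (chr9:88521052-88522897, minus strand) holds Snord50a and Snord50b, which differ at 1 of 72 bases. Snhg6 (chr1:9942025-9944118, minus strand) holds Snord87, and Snhg8 (chr3:123507552-123508336, minus strand) holds Snora24. Of these 27 snoRNAs, 6 have a row of their own in the count table, namely Snord47 of Gas5, Snord22 of Snhg1, Snord87 of Snhg6, and Snora16a, Snora44 and Snora61 of Snhg12.

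The sequences of 5 of these, as annotated in GENCODE vM21, are given because their counts are set against those of their hosts further on, with the Snord50 pair of Snhg5 for comparison. Capitals mark box C (TGATGA within the first 20 bases) and box D (CTGA near the 3′ end) of C/D RNAs, or the ACA triplet near the 3′ end of H/ACA RNAs, searched on the RNA strand only.
Snord47 in Gas5 (chr1:161038082-161038158, plus strand): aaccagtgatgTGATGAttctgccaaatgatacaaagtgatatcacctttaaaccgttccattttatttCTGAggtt
Snord22 in Snhg1 (chr19:8725866-8725991, plus strand): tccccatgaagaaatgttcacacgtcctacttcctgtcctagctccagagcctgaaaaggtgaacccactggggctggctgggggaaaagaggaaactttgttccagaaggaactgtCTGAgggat
Snora16a in Snhg12 (chr4:132309464-132309600, plus strand): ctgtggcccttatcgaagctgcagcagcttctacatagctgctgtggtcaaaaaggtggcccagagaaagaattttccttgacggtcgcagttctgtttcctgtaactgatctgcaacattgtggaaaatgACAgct
Snora44 in Snhg12 (chr4:132309941-132310069, plus strand): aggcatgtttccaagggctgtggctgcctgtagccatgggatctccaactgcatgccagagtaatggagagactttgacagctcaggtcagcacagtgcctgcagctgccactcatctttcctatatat
Snora61 in Snhg12 (chr4:132310240-132310369, plus strand): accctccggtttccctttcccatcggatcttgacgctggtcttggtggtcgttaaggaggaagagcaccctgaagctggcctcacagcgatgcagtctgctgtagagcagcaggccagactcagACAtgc
Snord50a in Snhg5 (chr9:88521529-88521600, minus strand): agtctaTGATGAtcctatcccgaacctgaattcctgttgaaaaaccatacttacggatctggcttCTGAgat
Snord50b in Snhg5 (chr9:88521797-88521868, minus strand): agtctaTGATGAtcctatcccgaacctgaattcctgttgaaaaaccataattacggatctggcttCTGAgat
Among the 21 C/D RNAs inside the 7 hosts, 21 had the box D letters and 17 had the box C letters at these places, compared with 94.8% and 71.1% of all 97 annotated RNAs with a Snord symbol. The ACA triplet was found in 5 of the 6 H/ACA RNAs of the hosts and in 95% of all 40 with a Snora symbol.

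The annotated start sites are shown because a pyrimidine tract at the start is the mark of the 5′ terminal oligopyrimidine class, to which the ribosomal protein mRNAs belong. Each line gives 40 bases of the RefSeq promoter table (GRCm38.p6), of which the first 15 precede the annotated start, and capitals mark the longest run that begins with C and continues in C or T.
Gas5, upstream start (chr1:161034586-161034625, plus strand): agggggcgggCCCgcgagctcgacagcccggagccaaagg
Gas5, start of the transcript matched by accession (chr1:161035151-161035190, plus strand): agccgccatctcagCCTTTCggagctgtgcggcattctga
Snhg1 (chr19:8723472-8723511, plus strand): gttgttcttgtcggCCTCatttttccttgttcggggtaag
Snhg3 (chr4:132353662-132353701, minus strand): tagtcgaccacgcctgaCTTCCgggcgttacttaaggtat
Snhg5 (chr9:88522873-88522912, minus strand): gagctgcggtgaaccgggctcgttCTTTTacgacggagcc
Snhg8 (chr3:123508312-123508351, minus strand): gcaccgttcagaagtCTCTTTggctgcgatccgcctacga
Snhg12 (chr4:132308663-132308702, plus strand): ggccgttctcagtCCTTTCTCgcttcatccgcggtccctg
A C followed by at least 4 pyrimidines lay within 3 bases of a RefSeq start, on the strand of the gene, in Gas5, Snhg3, Snhg8 and Snhg12. It did not in Snhg1 or Snhg5, nor at the upstream start of Gas5. Of all 32851 promoters listed, 11.5% met this condition, and of the 81 promoters of ribosomal protein genes 35.8% did. Snhg6 was not among the promoters used. In Snhg1, Snhg5 and Snhg8 the start given in GENCODE lies 12, 7 and 6 bases from the RefSeq start, farther than the 3 bases allowed. In Snhg5 the GENCODE start is downstream, and the run shown begins 9 bases after the RefSeq start, so Snhg5 meets the condition there. In Snhg8 the GENCODE start is also downstream, past the beginning of the run, and the condition is not met there.

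What the counts of a host contain depends on the transcript that was counted. The matches given here are to GENCODE vM21 and may differ from the transcript set the authors counted on. In GENCODE, the transcript that carries the RefSeq accession of the Gas5 row is 2556 bases long, keeps introns and contains 6 of the 9 snoRNAs, which make up 17% of its bases. That of Snhg8 is a single exon of 776 bases that contains Snora24, 16.8% of its bases. If these were the transcripts counted, reads from the snoRNA can be counted on these hosts, whereas the transcripts of Snhg1, Snhg3, Snhg5, Snhg6 and Snhg12 are spliced and contain no snoRNA. No stretch of 58 bases, the read length, in any of the 7 was found in the matched transcript of another gene of the table. The exons of Snhg3 overlap the antisense gene Gm17300 over 347 of the 437 bases of the matched transcript. Those of Snhg6 overlap Mcmdc2 over 61 of 400 bases. The library kit marks the strand of the RNA, but the mapping options given in the methods hold no strand restriction and a strand setting of the counting is not given in the sources used here. Reads of these antisense partners therefore cannot be told apart from those of Snhg3 and Snhg6.

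The libraries held 100250892 to 159077286 counted reads. The ribosomal RNA precursor Rn45s took 8.18 to 9.11% of the counts at 0, 30, 60 and 120 min and 12.96 to 20.5% at 15, 45, 75 and 90 min, so that the libraries fall into 2 sets. Macrophage genes were high in every library (7 genes, 5476 to 6689 summed cpm, reads per 1e6 counted), while the genes of T cells, B cells, fibroblasts and epithelium (12 genes in all) reached at most 16 counts each. Malat1, an RNA retained in the nucleus, was present in every library (the labels give the molecule as total RNA and the RNA fraction as cytoplasmic). As in any bulk measurement, fewer cells with an RNA and less of it per cell cannot be told apart.

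The steepest early change was a fall of Snhg5. Its normalized read count (the count divided by the size factor of the library) was 2915 before LPS and then, in order of time, 2766, 1842, 1570, 2042, 2477, 2957 and 3510. The RNA thus dropped to its lowest level at 45 min, climbed at every later time point and ended above its starting level. Relative to 0 min the level was 0.632-fold at 30 min (95% interval 0.599 to 0.667) and 0.539-fold at 45 min (0.506 to 0.573). The step from 15 to 30 min alone was 0.666-fold (0.630 to 0.704), and the later return from 45 to 120 min was 2.24-fold (2.10 to 2.38). The low libraries at 30 and 60 min belong to the set with little Rn45s, and the one at 45 min to the set with much of it. The part of library composition in this dip was not tested. Within the 0, 30, 60 and 120 min libraries alone, the log2 ratios of Snhg5 to 0 min were, in that order, -0.66, -0.51 and 0.27. At 30 min, 10459 of the 10494 rows had a higher log2 ratio than Snhg5.

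The other change was late and upward, and was largest in Snhg3, Gas5 and Snhg12. Snhg3 had normalized read counts of 406, 433, 463, 482, 541, 566, 697 and 817 from 0 to 120 min. Each library was above the one before it, although the first 5 steps were each within counting error, and the level at 120 min was 2.01-fold that at 0 min (1.80 to 2.25). Snhg3 is the least abundant of the 7, with 402 to 1008 reads per library, and has the widest intervals. Reads of the antisense gene Gm17300, which overlaps most of its matched transcript, may be among these and cannot be told apart from them.

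Gas5 had normalized read counts of 13330, 12585, 12737, 11168, 14237, 15417, 21159 and 24925 in the same order. It stayed within 0.838-fold (45 min) and 1.16-fold (75 min) of the 0 min level up to 75 min, then stood at 1.59-fold at 90 min (1.55 to 1.62) and 1.87-fold at 120 min (1.83 to 1.91). The largest step between neighbouring libraries, 1.37-fold (1.34 to 1.41), was that from 75 to 90 min.

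Snhg12 had normalized read counts of 1116, 840, 970, 1065, 1458, 1393, 1742 and 2011. It was lowest at 15 min, where it was 0.753-fold of the 0 min level (0.690 to 0.820), was back near it at 45 min and reached 1.80-fold at 120 min (1.68 to 1.93). Snhg12 covered the widest range of the 7, 2.39-fold between the lowest and the highest library.

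Snhg1, Snhg8 and Snhg6 stayed inside the limit of 0.5 on the log2 scale in every library. Snhg1 had normalized read counts of 3786, 2949, 3782, 3546, 4374, 3537, 4703 and 5262, with dips at 15 and 75 min and the highest value at 120 min (1.39-fold, 1.34 to 1.44). Snhg8 had 1963, 1984, 2351, 1886, 2344, 2222, 2575 and 2734, and its 120 min level was 1.39-fold that at 0 min (1.32 to 1.47). Snhg6 had 648, 525, 574, 605, 698, 690, 820 and 856, which is 1.32-fold at 120 min (1.20 to 1.45). At 120 min the log2 ratios of Snhg8 (0.48) and Snhg1 (0.47) lay just inside the limit, and that of Snhg12 (0.85) was the lowest outside it. At 15 min, Snhg12 (-0.41), Snhg1 (-0.36) and Snhg6 (-0.30) were low together in a library with a high share of Rn45s, and at least 10339 of the 10494 rows had a higher log2 ratio than each of them.

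**Figure D1:**
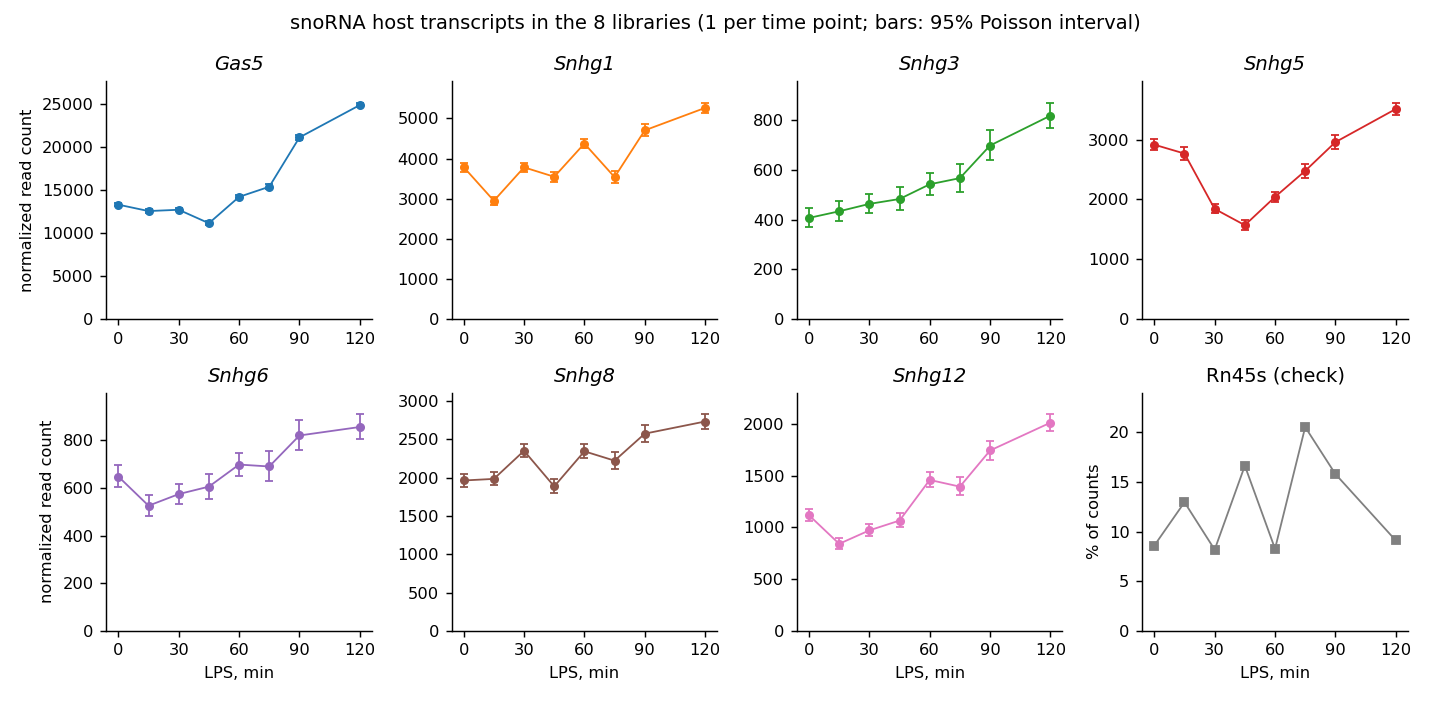
Normalized read count of each of the 7 host transcripts (y axis, from 0) against minutes of LPS (x axis), 1 library per point, with 95% Poisson intervals; the last panel gives the percentage of each library's counts on Rn45s. Snhg5 has a trough of 1570 at 45 min, and all 7 RNAs have their highest value at 120 min.

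Called higher or lower means a log2 ratio to 0 min above 0.5 or below -0.5, and each count of hosts is set against the share of all 10494 rows past the same limit. At 15 min no host was called, with 0.791% of the rows higher and 0.496% lower. At 30 min 0 hosts were higher (2.17% of rows) and 1, Snhg5, was lower (0.772%). At 45 min the same RNA alone was lower (0 higher against 8.35% of rows, 1 lower against 4.01%), and again at 60 min (0 against 6.69%, 1 against 5.97%). At 75 min no host was called, against 10.9% of rows higher and 9.36% lower. At 90 min Gas5, Snhg3 and Snhg12 were higher and none was lower, against 12.1% and 10.7% of rows. At 120 min the same 3 of 7 were higher and 0 lower, against 15.1% and 14% of rows. The median log2 ratio of the 7 went from -0.08, -0.07 and -0.09 at 15, 30 and 45 min to 0.21, 0.18, 0.39 and 0.48 at 60, 75, 90 and 120 min, while that of all rows tested stayed between -0.01 and 0.02. Size factors centre the rows near 0, so the flat median of all rows follows from the scale and is not a finding.

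The scale between libraries matters for these late values. With total counts in place of size factors the median of all rows was as low as -0.34 (75 min) and stood at -0.21 at 120 min, and the hosts moved with it. At 75 min Gas5, Snhg6, Snhg8 and Snhg12 then fell below 0. At 90 min 1 host, Snhg3, was called higher instead of 3, against 6.31% of all rows on this scale. At 120 min Gas5, Snhg3 and Snhg12 remained above 0.5 on this scale (0.70, 0.81 and 0.65), against 9.16% of all rows. Snhg5 was at 0.07. A correction for transcript length brought Snhg8 (0.61) and Snhg1 (0.54) past the limit at 120 min, so that 5 of 7 were called. The share of all rows past the limit after this correction was not computed.

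**Figure D2:**
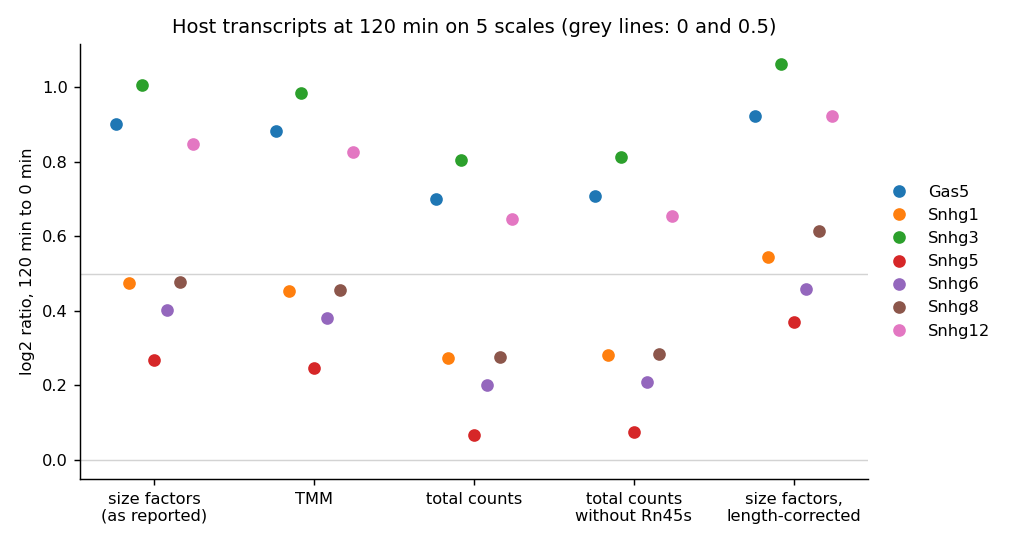
Log2 ratio of the 120 min to the 0 min library (y axis) for the 7 hosts (coloured points) on 5 scales between libraries (x axis). Total counts lower every point by about the same amount, and Snhg3, Gas5 and Snhg12 stay above the grey line at 0.5 on all 5 scales.

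A stricter rule also asked for an unadjusted p under 0.05 in the exact negative binomial test of the 2 libraries, at the dispersion that DESeq2 fitted to all 8 libraries as if they were replicates, and compares these libraries rather than the conditions. It kept Snhg5 as lower at 30 min (0.21% of rows passed in that direction) and at 45 min (2.01%), but not at 60 min. It kept Gas5 and Snhg3, but not Snhg12, as higher at 90 min (7.47%), and all 3 at 120 min (9.82%). With the dispersion of edgeR only Snhg5 at 45 min and Gas5 at 120 min were left. Under the pattern rule of the study, which looks for maxima and minima over all 28 pairs of libraries, Gas5, Snhg3 and Snhg12 had a maximum at 120 min, Snhg5 had a minimum at 45 min followed by a maximum at 120 min, and the other 3 had neither. At least 1 such extremum was found in 23.4% of the rows tested. With the dispersion of edgeR, Gas5 and Snhg5 kept theirs while Snhg3 and Snhg12 had none, and with total counts Snhg12 lost its maximum.

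**Figure D3:**
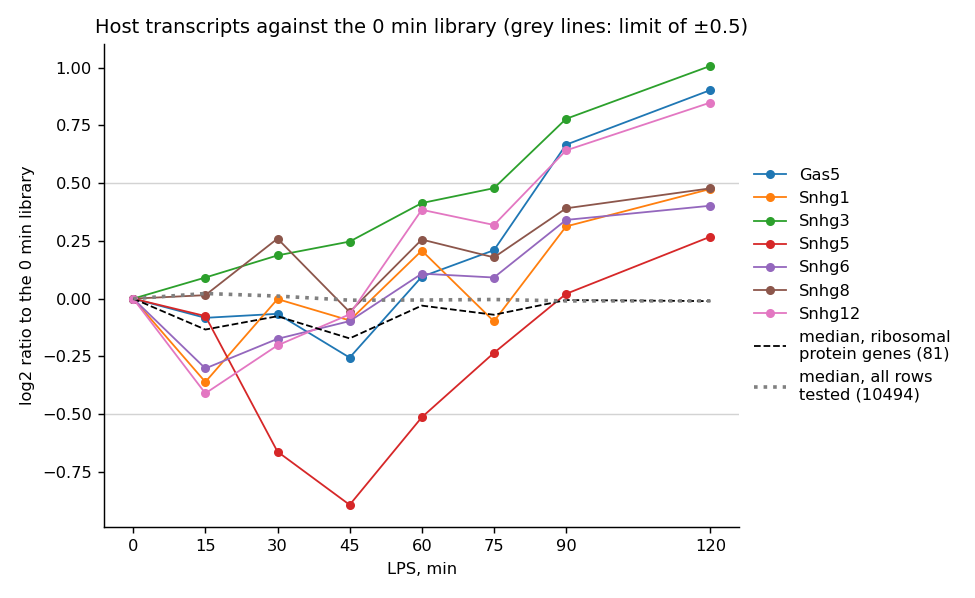
Log2 ratio to the 0 min library (y axis) against minutes of LPS (x axis) for the 7 hosts, with the median of 81 ribosomal protein genes (dashed) and of all 10494 rows tested (dotted). Snhg5 is at -0.89 at 45 min, and at 120 min the hosts lie between 0.27 and 1.01 while both medians are near 0. The size factors hold the median of all rows there.

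Levels can be compared between these genes only per length of transcript, and the order then depends on which transcript is taken. With the longest annotated transcript, the level at 0 min was 46.5 rpkm (reads per kb of transcript and 1e6 counted reads) for Gas5, 22.6 for Snhg8, 21.3 for Snhg5, 12.4 for Snhg1, 7.08 for Snhg6, 6.48 for Snhg12 and 6.24 for Snhg3. In this order the intervals of Snhg8 and Snhg5 overlapped, as did those of Snhg6, Snhg12 and Snhg3. With the transcript that carries the RefSeq accession of the row, Snhg1 came first at 55.8 rpkm, because its spliced RNA of 605 bases is much shorter than the longest annotated one of 2728 bases. Gas5 followed at 46.5, Snhg5 at 25.9, Snhg8 at 22.6, Snhg12 at 16.4, Snhg6 at 14.4 and Snhg3 at 8.29. With the median annotated transcript length of each gene the level at 0 min was 189.0 rpkm for Gas5 and 56.1 for Snhg1. At 120 min the level of Gas5 was 75.6 rpkm on each of the first pair of lengths, above that of Snhg1 (15.0 and 67.5), whose interval it did not overlap.

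The share of each host in the summed counts of the 7 does not depend on the scale between libraries. Gas5 made up 55.2% of these counts before LPS (54.6 to 55.7%, Clopper-Pearson 95% interval), 61.1% after 90 min and 62.1% after 120 min (61.7 to 62.6%). The share of Snhg5 was 12.1% at 0 min and 12.5% at 15 min, dropped to 8.11% at 30 min and 7.72% at 45 min (7.34 to 8.12%), and was still 8.75% at 120 min. At 120 min Snhg5 was therefore above its starting level in normalized counts and below it as a share of the hosts. Snhg12 went from 4.62 to 5.01% and Snhg3 from 1.68 to 2.04% between 0 and 120 min, whereas Snhg1 went from 15.7 to 13.1%, Snhg8 from 8.12 to 6.81% and Snhg6 from 2.68 to 2.13%. Unlike the shares, the sum of the 7 depends on the scale between libraries. With size factors it was 1.66-fold the 0 min level at 120 min (1.64 to 1.68), and 1.40-fold without Gas5. With total counts the rise was smaller, from 216 to 311 cpm, and from 96.7 to 118 cpm without Gas5. Leaving out Snhg8 as well, so that no transcript matched in GENCODE holds a snoRNA, gave 1.40-fold too with size factors (1.37 to 1.44). Per kb of transcript the share of Gas5 before LPS was 38.0% with the longest annotated transcript and 24.5% with that of the RefSeq accession, on which Snhg1 had 29.4%, and at 120 min the share of Gas5 was 44.6% and 29.7%.

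At 120 min the 5 snoRNAs with enough counts stood lower, relative to 0 min, than the hosts that hold them. Snord47, which guides a methylation of 28S ribosomal RNA, had normalized read counts of 719, 596, 607, 426, 684, 659, 725 and 780, so that it was 1.09-fold at 120 min (0.989 to 1.19) where Gas5 was 1.87-fold. Snord22 had 6616, 3886, 5838, 3021, 7041, 5312, 5468 and 6729, which is 1.02-fold at 120 min (0.986 to 1.05) against 1.39-fold for Snhg1. Both were lowest at 45 min and had no library far above the 0 min level.

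In Snhg12 the 3 snoRNAs with enough counts differed from each other. Snora44 had normalized read counts of 1942, 1351, 1822, 1135, 2567, 2222, 1854 and 2114, Snora16a had 323, 217, 355, 199, 473, 321, 411 and 425, and Snora61 had 632, 351, 465, 282, 652, 317, 437 and 442. At 120 min they were 1.09-fold (1.03 to 1.15), 1.31-fold (1.15 to 1.50) and 0.699-fold (0.624 to 0.781) of 0 min, against 1.80-fold for the host. With size factors Snora61 alone ended below its starting level. With total counts Snora44 did as well (2270 of 131039483 counts at 0 min and 2609 of 159077286 at 120 min), as did Snord47 and Snord22. Snord87 of Snhg6 had 9 to 25 reads per library, too few to be tested.

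Set directly against the host in the same library, the number of snoRNA reads per host read was lower at 120 min than at 0 min for all 5. The ratio of these 2 quotients was 0.581 for Snord47 (95% interval 0.528 to 0.638, Wald), 0.732 for Snord22 (0.697 to 0.769), 0.605 for Snora44 (0.554 to 0.660), 0.729 for Snora16a (0.629 to 0.846) and 0.388 for Snora61 (0.341 to 0.441). All 5 intervals exclude 1 for counting error, but all use the same 2 libraries. Snora44, Snora16a and Snora61 also share the Snhg12 counts, so the ratios are not independent. In the same order of snoRNAs the ratios were 0.707, 0.488, 0.613, 0.644 and 0.468 at 45 min. At 30 min, in a library with little Rn45s, they were 0.884, 0.883, 1.08, 1.26 and 0.846. The 0 and 120 min libraries had like shares of Rn45s, but the snoRNAs moved with the libraries at other times. At 15 min 4 of the 5 were called lower and at 45 min all 5 were, against 0.496% and 4.01% of all rows. Of the 43 snoRNA rows tested in the whole table, which include these 5, 22 and 37 were called lower in these libraries. Both libraries had a high share of Rn45s. Of the same 43 rows, 1 was called lower at 120 min and 5 were called higher (2.33% and 11.6%), against 14% and 15.1% of all rows. The part of library composition in these differences was not tested.

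**Figure D4:**
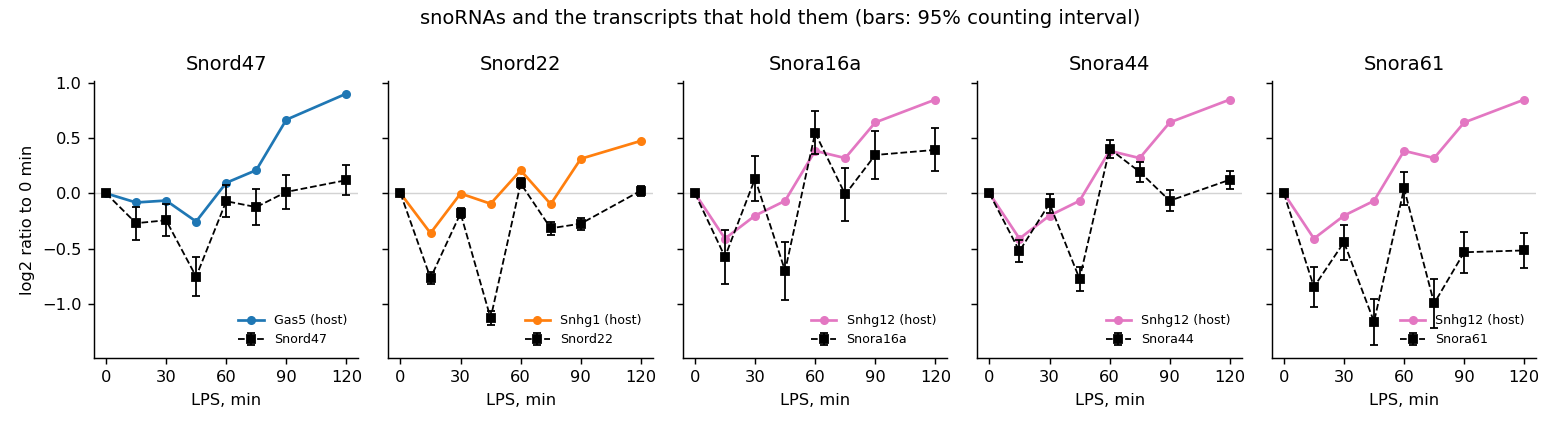
Log2 ratio to the 0 min library (y axis) against minutes of LPS (x axis) for 5 snoRNAs (black squares with 95% counting intervals) and the host that holds each (coloured circles). At 120 min every snoRNA lies below its host, and at 45 min all 5 snoRNAs lie below -0.70.

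Other non-coding hosts were mostly higher at 120 min as well, as far as they were measured. Of 16 listed, 8 had a row and 5 passed the minimum count, and 4 of these 5 were called higher at 120 min (median log2 ratio 0.77), against 15.1% of all rows. They were Mir17hg, which holds microRNAs rather than snoRNAs (1.15), Dancr (1.12), Snhg7 (0.54) and Snhg4 (0.77, named after its value was seen). The fifth, Snhg10, was at -0.06. Mir17hg had already reached 1.10 at 45 min, when no member of the 7 was called higher.

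Of 34 protein-coding hosts of snoRNAs none was called in either direction at 120 min, against 15.1% of all rows higher and 14% lower. These hosts were listed by name and not by position, so the list may lack others, and the result holds for the listed genes only. The median log2 ratio of the 34 was 0.04. Most of these 34 are ribosomal protein genes and recur in the list of 81 below. At 75 and 90 min 1 of the 34 was called higher, against 10.9% and 12.1% of all rows. This was Ncl, the gene of the nucleolar protein nucleolin (0.76 and 0.55, named after its values were seen). At 120 min the highest were Eif4a1, a helicase of translation initiation (0.47), and Nop56, a core protein of C/D particles (0.47). The lowest were the ribosomal protein genes Rpl13a (-0.15) and Rpl32 (-0.13). Of the 81 ribosomal protein genes tested 1 was called higher at 120 min, Rps27 (0.55), against the same 15.1% of all rows. The median was -0.01. Among the 81, Rpl7l1 (0.37) came next, and Rps29 (-0.25) and Rps16 (-0.18) were lowest. Rps27 averaged 396 normalized counts, which is few for this list. The list was drawn up by symbol, which also takes in Rpl7l1 and Rps19bp1, genes of related name. Gas5, Snhg3, Snhg8 and Snhg12, with a pyrimidine tract at a RefSeq start (in Gas5 the downstream one only), had log2 ratios of 0.48 to 1.01 at 120 min. Snhg1 and Snhg5, whose RefSeq starts do not, had 0.47 and 0.27. With the GENCODE starts Snhg5 would join the genes with a tract and Snhg8 would leave them. The median of the ribosomal protein genes was lowest at 45 min, at -0.17.

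Proteins that build snoRNA particles included 4 of 19 called higher and none lower at 120 min, with a median of 0.21. That is 21.1% of the list, against 15.1% of all rows. Nop58, another core protein of C/D particles (0.92), and Naf1, an assembly factor of H/ACA particles (0.86), were the highest, and Pih1d1 (-0.08) and Nop10 (-0.04) the lowest. The other 2 were Tgs1, which hypermethylates RNA caps (0.70), and Gar1, an H/ACA core protein (0.53), named after their values were seen. Nop58 at 1.89-fold was close in size to Gas5 at 1.87-fold. Genes of nonsense-mediated decay, the pathway that degrades spliced Gas5, had 2 of 16 higher and none lower (median 0.19), or 12.5% against the same 15.1% of all rows. These were Smg1 (0.63), the kinase of the decay factor Upf1, and Smg8 (0.60), while Upf3b (-0.28) and the endonuclease gene Smg6 (-0.14) were lowest.

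**Figure D5:**
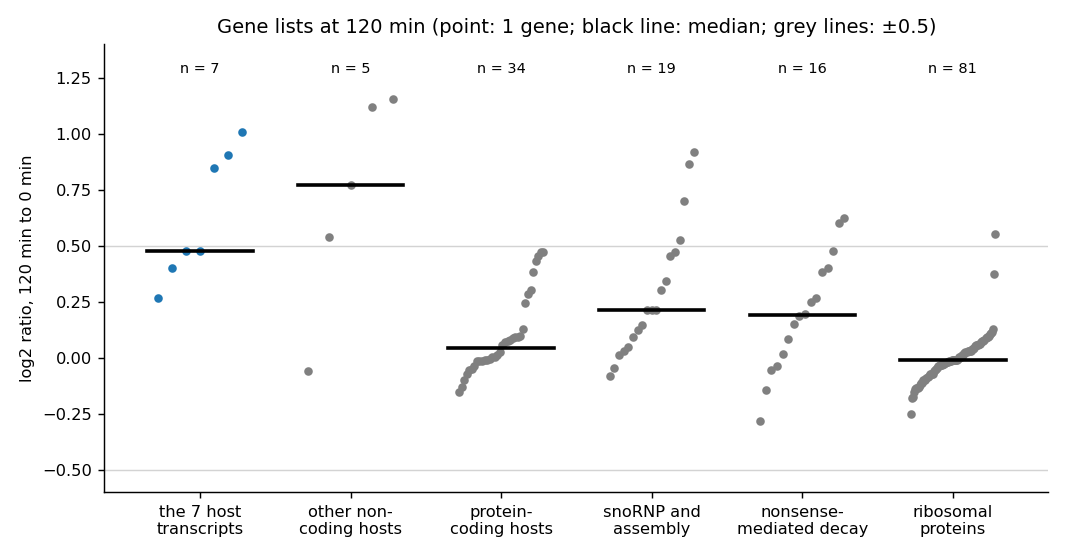
Log2 ratio of the 120 min to the 0 min library (y axis) for every tested gene of 6 lists (x axis), with the median of each list as a black line. The 7 hosts lie between 0.27 and 1.01, the 34 listed protein-coding hosts between -0.15 and 0.47.

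The time courses of the hosts were not all alike. Measured as the root mean square difference of the log2 ratios over the 7 stimulated libraries, the closest pair was Snhg1 and Snhg6 (0.110) and the most distant was Snhg3 and Snhg5 (0.805). Gas5 was closest to Snhg12 among the hosts (0.193). Among all other rows the nearest to Gas5 were Dpep2, a membrane dipeptidase (0.102), Hilpda, a protein of lipid droplets (0.119), and Ado, a thiol dioxygenase (0.119). Snhg3 had much closer neighbours in Car13, a carbonic anhydrase (0.0387), Ubtd2 (0.0459) and Arf6, a small GTPase of the plasma membrane (0.0701). These distances are smaller than the counting error of Snhg3, whose log2 ratio at 15 min had an interval of -0.097 to 0.28, so their order is not resolved. The rows nearest to Snhg5, with its dip, were 2810408M09Rik (0.0835), the histone gene Hist1h2bk (0.0985) and Tmem186 (0.108), and 2 of 10491 rows lay within 0.1. For Snhg3 this number was 16, and for Gas5, Snhg1 and Snhg12 it was 0.

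For Snhg6 the nearest rows were Hax1 (0.0570), Znrd1, a subunit of RNA polymerase I (0.0729), and the host RNA Snhg7 (0.0761). Snhg1 was closest to Gtpbp6 (0.102), then to Snhg6 and Setd4 (0.119). Snhg8 was closest to Gm14005 (0.0574), E130012A19Rik (0.0639) and Gm8909 (0.0724). The nearest rows to Snhg12 were Epb4.1l5 (0.127), Pkd1l2 (0.127) and 2810403A07Rik (0.130). These distances describe 8 libraries that all share the 0 min reference.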

How the data were processed

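The authors deposited raw counts of reads per gene symbol for the 8 libraries, 1 per time point. According to the methods, ribosomal RNA had been depleted, Bowtie placed reads of 58 bases on mm10 RefSeq transcripts and those matching more than 1 symbol were dropped. The submitters' processing notes name CASAVA 1.8.2 and DESeq 1.10.1. The members and all gene lists were chosen with earlier results of these data known.

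Size factors were the medians of ratios (DESeq2 1.42.0, R 4.3.3), computed over all rows. Ratios of 2 libraries carry exact conditional binomial 95% intervals, rpkm values exact Poisson intervals and shares Clopper-Pearson intervals, all for counting error only. Rows whose normalized counts averaged 100 or more were tested, and a log2 ratio beyond 0.5 was called. The negative binomial test followed DESeq with blind dispersion trends (DESeq2; edgeR 4.0.16 as an alternative). Code in Python 3.11.15 (scipy 1.17.1) was tested on simulated data. Depth was 100250892 to 159077286 counts per library. Transcripts, snoRNAs and start sites came from GENCODE vM21 and RefSeq (GRCm38.p6), and the transcript set of the authors was not used here. For lengths, 22571 rows were matched by accession.

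Named rows were the 7 members, the snoRNA rows inside them, the 2 highest and 2 lowest rows of each list at 120 min, and the 3 rows nearest each member in time course. Alternatives were other scales between libraries (total counts, TMM, total counts without Rn45s, size factors without snoRNA rows, a length correction), a log2 limit of 1, lower minimum counts, 15 min as the reference, both dispersion trends and other transcript lengths. The 4 libraries with little Rn45s taken alone, the median without Gas5 and Snhg8, the transcript of the RefSeq accession, other settings of the pattern rule and other scales for the snoRNAs were chosen after seeing the data.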

Additional observations from a re-analysis of the deposited data

How the results depend on the processing

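No paired analysis was possible because each time point has 1 library, so that the replicate numbers carry no pairing, and no library has a replicate to leave out. TMM factors, size factors without snoRNA rows and, for 30, 60 and 120 min, the 4 libraries with little Rn45s taken alone moved none of the host counts or medians beyond the counting interval or 1.5 times. A minimum mean count of 10 or none kept all 7 hosts tested and changed no host count. No called value of a host changed sign under any scale or reference tried. The log2 ratios of single hosts often left their counting intervals. With total counts 33 did and 16 did not, and with total counts without Rn45s 23 did and 26 did not. With the length correction 25 did and 24 did not, and with 15 min as the reference 25 did and 17 did not. With TMM factors 1 did, Gas5 at 90 min.

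The number of hosts called changed as follows. With a log2 limit of 1 it was 0 at 30, 45, 60 and 90 min and 1 (Snhg3) at 120 min. With total counts, 1 host was lower at 75 min, against 29.6% of all rows, and 1 was higher at 90 min, against 6.31%. With the length correction, 0 hosts were lower at 60 min, 1 was higher at 75 min, 4 instead of 3 were higher at 90 min and 5 were higher at 120 min. With 15 min as the reference, 2 hosts were higher and 0 lower at 60 min, 1 was higher at 75 min, and 5 were higher at 90 min and at 120 min. With the negative binomial test at the DESeq2 trend 0 were lower at 60 min and 2 instead of 3 were higher at 90 min. At the edgeR trend 0 were lower at 30 and 60 min, 0 were higher at 90 min and 1 at 120 min, and 2 hosts instead of 4 had a maximum or minimum. With total counts 3 had one. Shares of all rows were not computed for the log2 limit of 1, the length correction, the 15 min reference or the edgeR trend.

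The median log2 ratio of the hosts with total counts was -0.15, -0.28, 0.11, -0.15, 0.13 and 0.28 at 15, 45, 60, 75, 90 and 120 min. With total counts without Rn45s it was -0.10, 0.11, 0.048, 0.25 and 0.28 at 30, 60, 75, 90 and 120 min. With the length correction it was 0.13, 0.29, 0.53 and 0.61 at 45, 60, 90 and 120 min. Without Gas5 and Snhg8 it was -0.30 at 15 min and -0.17 at 30 min. Of the snoRNAs inside the hosts, 0 instead of 1 were called higher at 60 min with total counts (5.22% of all rows) or total counts without Rn45s (5.14%). With total counts 2 instead of 1 were called lower at 75 min (29.6% of all rows) and at 90 min (24.1%). The causes were not tested. Every host had at least 402 reads in each library, but counting error still covered some differences. For Snhg6 the intervals at 45, 60 and 75 min included the 0 min level. The missing replicates are a limit for every difference.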
